A study of Mus musculus with 516 samples.

Results

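Molecular chaperones were followed cell by cell in the dorsal root ganglia of mice, which house the sensory neurons of the body. The genes are those of the deposited count table whose symbols belong to the heat shock protein families (Hspa, Hspb, Hspd, Hspe, Hsph and Hsp90), the DnaJ families (Dnaja, Dnajb and Dnajc) or the cytosolic chaperonin (Cct2 to Cct8). The rule is by name alone and found 66 of the 11251 genes in the table. They were sorted into 10 lists by the compartment in which the protein works. Cells came from the inbred mouse strains C57BL/6 and CAST/Ei. Naive cells were captured straight after dissociation of the ganglia. Cultured cells, labelled injured or in vitro axotomy because dissociation severs the axons, were first plated on bare plastic for 48 h, received the mitotic inhibitor ara-C after 24 h, and were lifted with trypsin. Of 516 cells, 25.6% were naive and 21.5% cultured C57BL/6, 33.7% were naive CAST/Ei and 19.2% cultured CAST/Ei. No animal, culture or capture chip is named in the labels, so each of the 4 groups counts as 1 sample.

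Chaperones bind unfolded or partly folded proteins and keep them from aggregating. Hsp70 proteins grip short stretches of chain in cycles of ATP hydrolysis, DnaJ proteins deliver the clients and stimulate that hydrolysis, Hsp110 proteins exchange the nucleotide, Hsp90 completes the folding of signalling proteins, and the CCT ring encloses actin and tubulin. The endoplasmic reticulum and the mitochondria carry their own Hsp70, Hsp90 or chaperonin sets. Heat shock factor raises the inducible cytosolic set through heat shock elements in promoters, and the unfolded protein response raises the endoplasmic reticulum set through a different promoter element.

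The table holds 496696577 reads, with 13932 to 2978345 per cell and a median of 839147. Cells were clustered on genes other than the chaperones and the partner genes described below, and 10 of the 15 clusters were called neuron-like from marker genes. They hold 85 naive C57BL/6 cells (64.4% of their group) and 33 cultured ones (29.7%), with 89.7% of naive CAST/Ei cells and 65 cultured ones (65.7%). Cultured neuron-like cells came almost all from clusters 1 and 5, which differ widely. Cluster 1 (22 C57BL/6 and 32 CAST/Ei cells) had medians of 8941 and 9034 genes per cell, and cluster 5 (10 and 31 cells) had 4750.5 and 4649. Markers of satellite and Schwann glia stood with culture in these cells: 12 of 14 were at least 2-fold higher in C57BL/6 and 10 of 14 in CAST/Ei. Per cell, their summed level ranged from 8.70 to 21048 reads of a gene per 1000000 reads (CPM) in naive and from 0 to 5591 in cultured C57BL/6 cells, and from 24.1 to 32346 and from 49.8 to 9461 CPM in CAST/Ei cells. The median cell stood at 296 CPM in naive and 2226 CPM in cultured C57BL/6 cells. In CAST/Ei the medians were 211 and 1766 CPM. Of the fibroblast markers 10 and 11 of 12 were higher, with summed levels per cell of 0 to 15976 CPM in naive and 0 to 7871 CPM in cultured C57BL/6 cells, and of 0 to 6509 and 46.4 to 23545 CPM in CAST/Ei cells. Their cell medians were 72.4 CPM in naive and 1282 CPM in cultured C57BL/6 cells, and 93.3 and 1787 CPM in CAST/Ei cells. No marker of either list was at 0 in the sum of a group. The part of these cells' RNA in the differences below was not tested.

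Each level is the reads of a group's neuron-like cells added together, as CPM, with exact 95% Poisson intervals that cover counting error only. Differences between groups are log2 ratios of CPM + 1. With 1 sample per group nothing was tested, and a gene is counted as higher or lower where it differed at least 2-fold, among genes with at least 5 CPM in either group. CPM compare a gene between groups. Levels of different genes are compared as CPM per kilobase of exon.

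**Figure D1:**
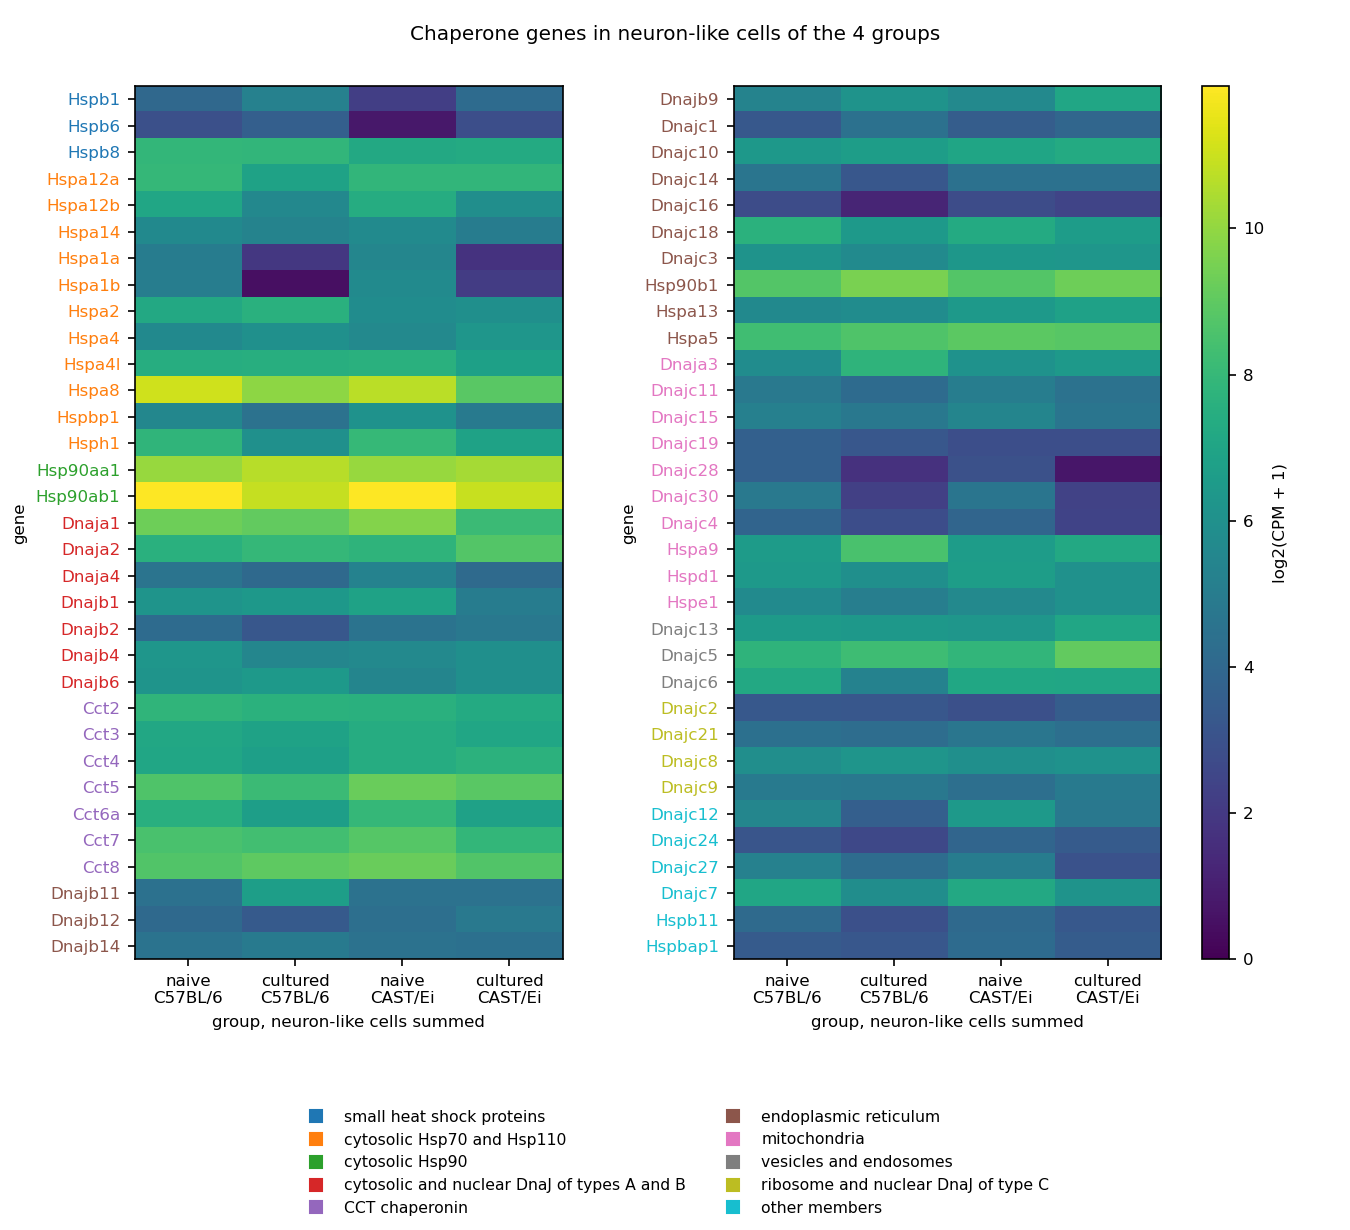
Level of each of the 66 chaperone genes in the summed neuron-like cells of the 4 groups, as log2(CPM + 1) on the colour scale, with gene names coloured by compartment. Hsp90ab1 and Hspa8 are the brightest rows in naive cells of both strains, and Hspa1a and Hspa1b are dark in both cultured groups.

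Cytosolic chaperones dominated in naive neuron-like cells. Per kilobase, Hsp90ab1, the constitutive cytosolic Hsp90, was highest at 1314 CPM in C57BL/6 and 1288 CPM in CAST/Ei. Hspa8, the constitutive Hsp70 (Hsc70), followed with 506 and 385 CPM per kilobase, then Hsp90aa1, the stress-inducible Hsp90, with 279 and 280. The chaperonin subunits Cct5 (144.5 and 215) and Cct8 (135.97 and 193) came next. In cultured cells Hsp90ab1 remained first at 626 and 653 CPM per kilobase and Hsp90aa1 was second at 410 and 332, while Hspa8 ranked 3 in C57BL/6 (222) and 7 in CAST/Ei (110.9). Cct6a was not ranked, because no exon length was matched to it. The sum over all 66 genes was 14084 CPM in naive and 11175 CPM in cultured cells of C57BL/6, against 14457 and 10551 CPM for CAST/Ei.

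The culture comparison asks which chaperones differ in neurons after dissociation and 48 h in the dish. In C57BL/6, 5 of 66 chaperone genes were at least 2-fold higher in cultured cells and 19 were lower. Of the 10593 genes kept, 21.5% were higher and 23.9% were lower. In CAST/Ei, 4 were higher and 16 were lower, beside 23.5% higher and 22.6% lower of 10809 genes. The members' median log2 ratio was -0.34 in C57BL/6 and -0.18 in CAST/Ei, and that of all genes was -0.14 and 0.04. The share of lower members stands close to that of all genes, and the share of higher members lies under it in both strains. Both strains had 12 genes lower in common, namely Hspa1a, Hspa1b, Hspa8, Hsph1, Hspa12b, Hspbp1, Dnajc4, Dnajc7, Dnajc12, Dnajc27, Dnajc28 and Dnajc30, and 1 gene higher, Hspb1. Of the 10294 genes kept in both strains 13.4% were lower and 12.8% higher in both. Of the 20 culture differences of C57BL/6 and 18 of CAST/Ei recomputed under the alternatives, 15 and 10 fell short of 2-fold, or changed sign, in at least 1 of them. No member was 2-fold higher in one strain and 2-fold lower in the other. The C57BL/6 count of lower members depends on the cells taken: it was 12 with the cultured cells of cluster 1 alone, 40 with those of cluster 5 alone, and 36 without the 25% of neuron-like cells highest in glial markers, which leaves 12 cultured cells. The share of all genes that were lower moved with it, at 19.5%, 51.3% and 46.9%. In CAST/Ei it was 27 with cluster 5 alone, beside 32.8% of all genes.

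**Figure D2:**
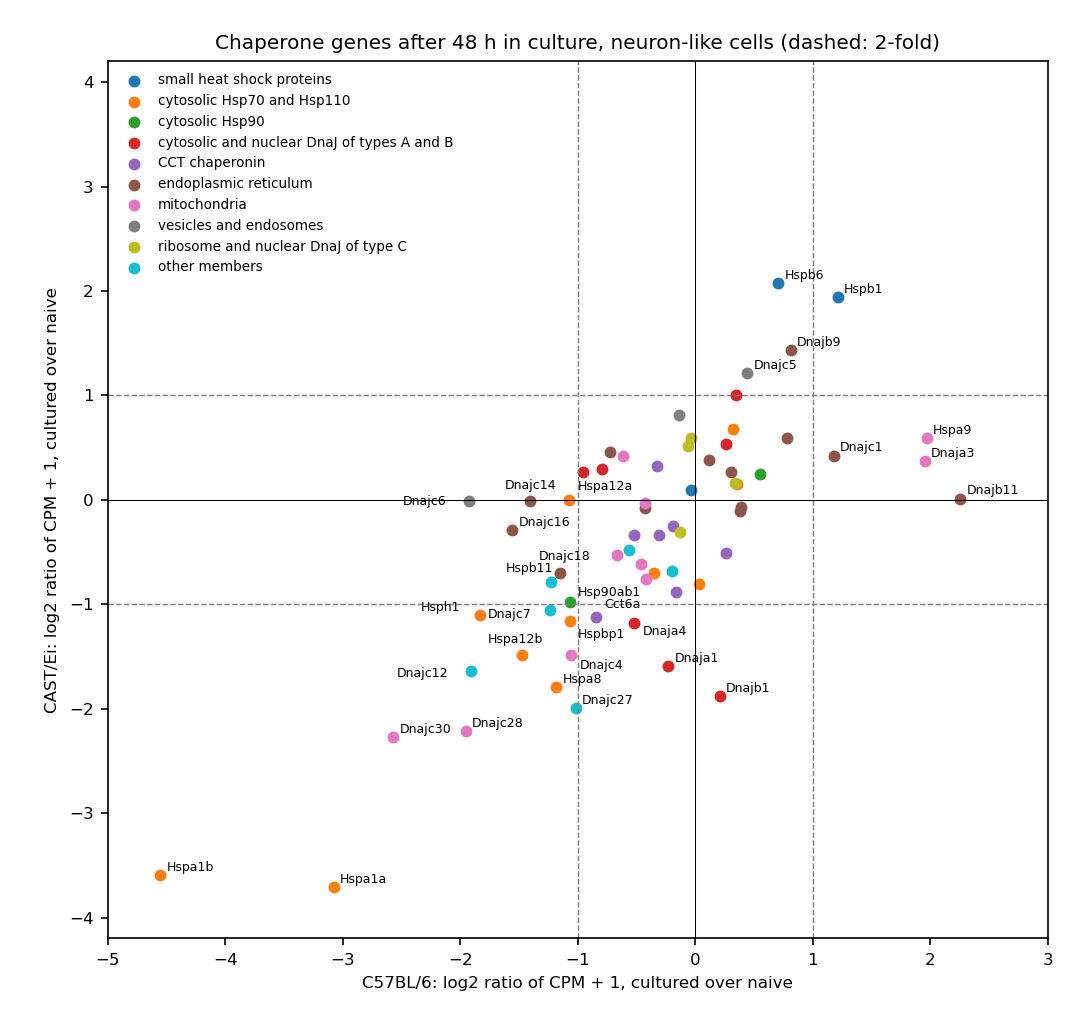
Log2 ratio of cultured over naive CPM + 1 for each of the 66 genes, C57BL/6 on the x axis and CAST/Ei on the y axis, coloured by compartment, with dashed lines at 2-fold and names for genes past a line. Hspa1a and Hspa1b lie far at the lower left, the Hsp70 list lies mostly below 0 in both strains, and Dnajb11, Dnaja3 and Hspa9 are high on the C57BL/6 axis alone.

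The cytosolic Hsp70 and Hsp110 list was lower in culture in both strains, with 7 of 11 genes at least 2-fold lower in C57BL/6 and 6 of 11 in CAST/Ei, none higher, and medians of -1.07 and -1.11. Of all genes 23.9% were lower in C57BL/6 and 22.6% in CAST/Ei. The largest differences were in the stress-inducible pair Hspa1a (chr17:34969190-34972156, minus strand, mm10) and Hspa1b (chr17:34956436-34959238, minus strand). Hspa1a stood at 31.4 CPM in naive C57BL/6 cells (95% interval 30.1 to 32.8), with a lowest, median and highest cell at 0, 8.69 and 425 CPM. In cultured C57BL/6 cells it was at 2.84 CPM (2.10 to 3.77; cells at 0, 0 and 27.4). The CAST/Ei level was 43.2 CPM in naive cells (42.1 to 44.2; cells at 0, 18.1 and 437) and 2.37 CPM in cultured cells (2.02 to 2.77; cells at 0, 0 and 45.2). Single cells overlap at 0 in all groups, but naive cells alone reach above 100 CPM. The log2 ratios were -3.08 in C57BL/6 and -3.71 in CAST/Ei.

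Hspa1b gave the same picture. It was at 32.3 CPM in naive C57BL/6 cells (30.9 to 33.7; cells at 0, 11.6 and 395) and 0.415 CPM in cultured ones (0.167 to 0.854; cells at 0, 0 and 6.71), a log2 ratio of -4.56. In CAST/Ei the values were 52.1 CPM (50.9 to 53.2; cells at 0, 27.2 and 548) and 3.39 CPM (2.97 to 3.86; cells at 0, 0 and 33.8), a ratio of -3.59. The genes are near copies: 62.3% of the 50-base words of the Hspa1b transcripts are also in other genes, mostly Hspa1a, so reads could be split between them, and they are best read as a pair. Across naive neuron-like cells their log2 levels went together, with Spearman rho 0.59 over 85 C57BL/6 cells and 0.69 over the naive CAST/Ei cells. That is a description, since the cells share a source and the genes share sequence. With every other pair among Hspa1a, Hspa1b, Hspa8, Hsph1, Hsp90aa1, Dnajb1, Hspb1 and Hspa5, rho in naive cells ran from -0.28 to 0.27 in C57BL/6 and from -0.31 to 0.39 in CAST/Ei.

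Shares of cells tell the same for the inducible pair at equal depth. After thinning each cell to 200000 reads, at least 5 reads of Hspa1a were found in 35.4% of naive C57BL/6 neuron-like cells (exact 95% interval 25.001 to 47.01; 28 of 79) and in 3.85% of cultured ones (0.0973 to 19.6; 1 of 26). The CAST/Ei shares were 44.6% (36.4 to 52.98) and 3.45% (0.420 to 11.9; 2 of 58). For Hspa1b they were 29.1% and 0 of 26 cells in C57BL/6, where the floor of 3 counts for a count of 0 allows a share of up to 11.5%, and 55.4% and 3.45% in CAST/Ei. Without thinning, the Hspa1a shares were 61.2% and 6.06% (C57BL/6) and 69.9% and 9.23% (CAST/Ei). The other cells of the same groups, at equal depth, showed Hspa1a at shares of 42.2% (naive) and 1.41% (cultured) for C57BL/6, and of 66.7% and 3.13% for CAST/Ei. Of the 47 other naive C57BL/6 cells before thinning, 31 were of cluster 9, whose neuron markers were at the level of the neuron-like clusters. That naive share is therefore not of non-neuronal cells alone. In culture the Hspa1a share was low in neuron-like and in other cells.

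Hspa8 (chr9:40800984-40810087, plus strand) was at 2176 CPM in naive C57BL/6 cells (2165 to 2187; cells from 658 to 4430, median 2267) and 957 CPM in cultured ones (942 to 972; 1.14 to 2768, median 1087). CAST/Ei cells held 1656 CPM (1650 to 1662; 282 to 4043, median 1646) and 477 CPM (472 to 482; 2.92 to 1707, median 493). Cultured cells lie lower in both strains, with overlap. The log2 ratios were -1.18 and -1.79, and in cluster 1 alone the C57BL/6 ratio was -0.91, under 2-fold. Of the 50-base words of Hspa8, 64.4% are shared with the predicted gene Gm15459, so its count is uncertain.

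Hsph1, the cytosolic Hsp110, was at 228 CPM in naive and 62.98 CPM in cultured C57BL/6 cells (cell medians 201 and 77.002), and at 255 and 118.1 CPM in CAST/Ei (medians 198 and 75.7). Its ratios were -1.84 and -1.11, and the CAST/Ei ratio was -0.99 without those glial-marker-rich cells. Hspa12b, a divergent Hsp70 relative, differed by -1.48 and -1.49, from 133.6 to 47.3 CPM and from 164.9 to 58.1 CPM, and by -0.96 in cluster 1 of C57BL/6. Hspbp1, which releases nucleotide from Hsp70, was at 45.8 and 21.3 CPM in C57BL/6 and 66.1 and 29.03 CPM in CAST/Ei. The C57BL/6 ratio of Hspbp1 was -0.05 with means of cell CPM, -0.94 with median-of-ratios scaling, -0.83 with 10 CPM added and -0.81 in cluster 1 alone, all under 2-fold, and with 10 CPM added the CAST/Ei ratio was -0.96. Hspa12a was lower in C57BL/6 (247 and 116.8 CPM; under 2-fold in 5 alternatives, to -0.68 with Ward clusters), while its sum was equal in CAST/Ei (231 and 230 CPM). Even so, the median CAST/Ei cell stood at 190 CPM in naive and 108.2 CPM in cultured cells, and cluster 5 (269 CPM) exceeded cluster 1 (167.03 CPM). Hspa4, an Hsp110 relative, and Hspa2, an Hsp70 best known from the male germ line, stayed within 2-fold in both strains.

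**Figure D3:**
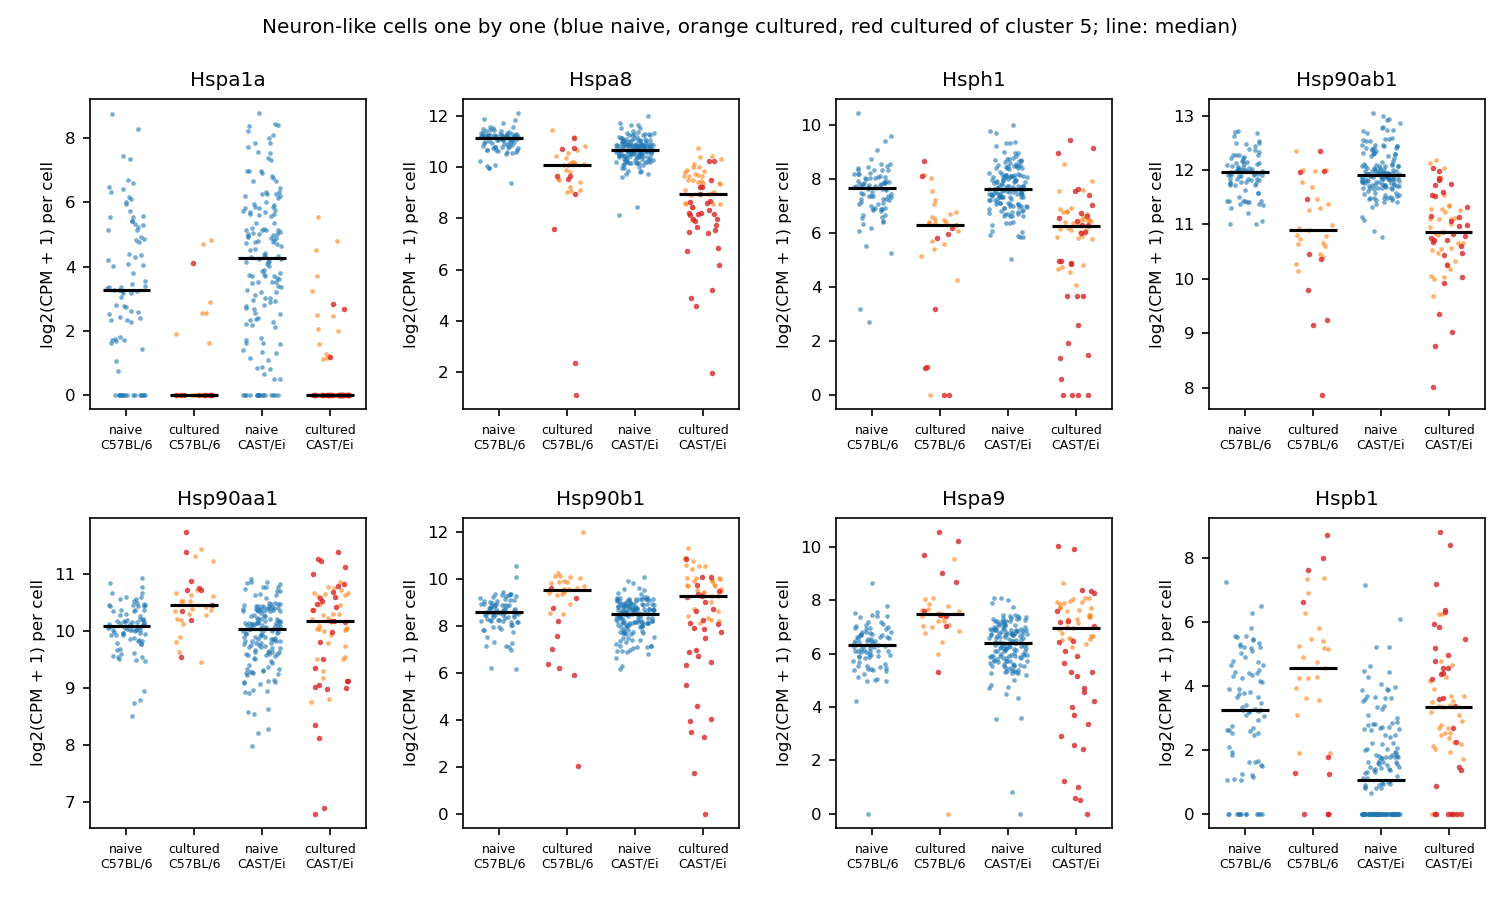
Log2(CPM + 1) of 8 chaperone genes in each neuron-like cell of the 4 groups, with naive cells in blue, cultured cells in orange, cultured cells of cluster 5 in red, and a line at the median of each group. Medians of Hspa1a are 0 in both cultured groups, those of Hspa8, Hsph1 and Hsp90ab1 are lower in culture in both strains.

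The cytosolic Hsp90 genes went different ways. Hsp90ab1 (chr17:45567775-45573271, minus strand) was at 3942 CPM in naive C57BL/6 cells (3927 to 3957; cells from 2053 to 6704, median 4010) and 1877 CPM in cultured ones (1857 to 1898; 232 to 5215, median 1908). In CAST/Ei the values were 3863 CPM (3853 to 3872; median 3861) and 1959 CPM (1949 to 1970; median 1862). The ratios of -1.07 and -0.98 lie on either side of the 2-fold line and are nearly equal. Hsp90aa1 was somewhat higher in culture, at 1096 and 1610 CPM in C57BL/6 (ratio 0.55; cell medians 1089 and 1407) and 1099 and 1304 CPM in CAST/Ei (0.25; medians 1043 and 1150), under 2-fold in both. The C57BL/6 ratio of Hsp90ab1 was -0.75 in cluster 1 alone, -0.78 with means of cell CPM and -0.93 with median-of-ratios scaling. Of the Hsp90aa1 words 44.1% are shared with Gm12346.

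The DnaJ proteins of types A and B, the Hsp70 partners of cytosol and nucleus, had 0 of 7 genes past 2-fold in C57BL/6 and 3 of 7 lower in CAST/Ei, with medians of -0.23 and 0.27. Of all genes 21.5% were higher and 23.9% lower in C57BL/6, and 22.6% lower in CAST/Ei. Dnaja1, a farnesylated partner of Hspa8, was at 638 and 545 CPM in naive and cultured C57BL/6 cells and 840 and 278 CPM in CAST/Ei. The C57BL/6 sum rests on 1 cell: a cluster 5 cell held 51.1% of the Dnaja1 reads, the medians over cells were 631 and 277 CPM, and with the cell of most reads left out of each group the C57BL/6 ratio was -1.13 instead of -0.23. In cluster 1 Dnaja1 was at 305 CPM in C57BL/6 and 370 CPM in CAST/Ei. Dnajb1 (Hsp40), the main heat-inducible partner of Hsp70, was at 70.8 and 82.1 CPM in C57BL/6 and 118.7 and 31.5 CPM in CAST/Ei, a ratio of 0.21 and -1.88. Its cell medians, 23.5 and 10.96 CPM in C57BL/6 and 53.4 and 5.94 CPM in CAST/Ei, were lower in culture in both strains, and 1 cluster 5 cell held 50.8% of the reads in cultured C57BL/6 cells. In cluster 1 Dnajb1 stood at 23.2 and 13.3 CPM. Dnaja2 was at 216 and 432 CPM in CAST/Ei, just under 2-fold higher, with medians of 181 and 198 CPM and 537 CPM in cluster 5. Dnaja4 was lower in CAST/Ei (38.2 and 16.3 CPM, -1.18; -0.36 with means of cell CPM), with a ratio of -0.52 in C57BL/6. Of its 50-base words 42.7% are shared with Wdr61, and 27.1% of those of Dnaja1 with other genes.

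Dnajb6 is shown because its promoter holds 1 of the few heat shock elements found among the members. The 300 bases around the start of each gene, from RefSeq on GRCm38.p6 (the mm10 assembly), were found for 54 of 66 members. A heat shock element of 3 units was searched as GAANNTTCNNGAA or TTCNNGAANNTTC on both strands. It lay in a window of 4 of 54 members (Hspd1, Hspe1, Hsph1 and Dnajb6), counted by gene over all its windows. By gene the share was 0.618% of the 8418 genes of the count table with a window, and by window 0.603% of 32851. The form of 2 units, GAANNTTC or TTCNNGAA, which every match of 3 units contains, was in 17 of 54 members (31.5%), beside 13.7% of those genes and 15.1% of windows. By list, and counted by gene, the short form was in 4 of 7 DnaJ A and B, 3 of 6 chaperonin and 3 of 10 Hsp70 genes. It was in 3 of 3 small heat shock and 1 of 11 endoplasmic reticulum genes. No window was found for the cytosolic Hsp90 genes. The sequence below, 61 to 19 bases before 1 start site, lies at chr5:29735837-29735879 on the plus strand, with the element in capitals.
Dnajb6: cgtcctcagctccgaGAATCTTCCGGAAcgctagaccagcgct
Dnajb6 stayed within 2-fold in both culture comparisons, at 71.4 and 85.9 CPM in C57BL/6 and 41.9 and 61.1 CPM in CAST/Ei. A match is only these letters in the window, and promoter activity was not measured.

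The CCT chaperonin varied little between naive and cultured cells as a list. In C57BL/6 0 of 7 subunits in the table passed 2-fold and in CAST/Ei 1 of 7 was lower, with medians of -0.31 and -0.34. Of all genes 21.5% were higher and 23.9% lower in C57BL/6, and 23.5% and 22.6% in CAST/Ei. Summed over the list, the level was 1868 and 1626 CPM in C57BL/6 and 2398 and 1737 CPM in CAST/Ei. Cct6a was at 187 CPM in naive (184 to 191; cell median 178) and 103.9 CPM in cultured C57BL/6 cells (99.1 to 108.8; median 120.7). In CAST/Ei it was at 248 CPM (245 to 250; median 220) and 113.7 CPM (111.1 to 116.2; median 120). The cultured clusters differed more than the strains: Cct6a was at 164.7 and 185 CPM in cluster 1 but at 19.9 and 59.5 CPM in cluster 5, and in CAST/Ei cluster 1 its ratio was -0.42. Cct5, Cct7 and Cct8 stayed within 2-fold, from 400 to 278 CPM, 363 to 323 CPM and 420 to 505 CPM in C57BL/6, and from 596 to 470, 438 to 238 and 595 to 419 CPM in CAST/Ei. Cct4 in cluster 5 was at 13.2 CPM in C57BL/6 and 220 CPM in CAST/Ei, against 168.1 and 189 CPM in cluster 1. Tcp1, the remaining subunit outside the naming rule, was at 265 and 147.9 CPM in C57BL/6 and 300 and 196 CPM in CAST/Ei (ratios -0.84 and -0.61).

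The endoplasmic reticulum list, unlike the cytosolic Hsp70 list, was not lower as a whole. In C57BL/6 2 of 13 genes were higher and 3 lower, in CAST/Ei 1 was higher and 0 lower, with medians of 0.30 and 0.01. As shares that is 15.4% and 23.1% in C57BL/6, beside 21.5% and 23.9% of all genes. In CAST/Ei it is 7.69% and 0%, beside 23.5% and 22.6%. Hsp90b1 (Grp94), the Hsp90 of this compartment, was at 431 CPM in naive C57BL/6 cells (426 to 436; cells from 70.3 to 1501, median 377) and 739 CPM in cultured ones (727 to 753; 3.09 to 4059, median 734). In CAST/Ei it was at 423 CPM (420 to 426; median 361) and 636 CPM (631 to 643; 0 to 2543, median 605). The ratios were 0.78 and 0.59, but the sums blend clusters that part: cluster 1 stood at 1103 and 1073 CPM, over 2-fold above naive cells in both strains, and cluster 5 at 220 and 378 CPM. A single cluster 1 cell held 26.2% of the Hsp90b1 reads of cultured C57BL/6 neuron-like cells. Without the cell of most reads in each group, the ratios were 0.50 and 0.50. The cluster 1 level without that cell is not given. Cultured fibroblast-like cells held 1997 and 2190 CPM and cultured glia-like cells 1642 and 1588 CPM of Hsp90b1, above every neuron-like cluster, and cluster 1 is also the neuron-like cluster with the highest glial and fibroblast markers. Their part in the cluster 1 level was not tested.

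Hspa5 (BiP), the Hsp70 of the endoplasmic reticulum and a main target of the unfolded protein response, was within 2-fold in both strains, at 306 and 402 CPM in C57BL/6 (cell medians 263 and 482) and 481 and 459 CPM in CAST/Ei (medians 372 and 443). It too was higher in cluster 1 (581 and 675 CPM) than in cluster 5 (138.5 and 330 CPM). The endoplasmic reticulum stress element, searched as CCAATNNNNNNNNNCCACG on both strands, was in the promoter windows of 3 of 54 members. It was in 0.166% of the 8418 genes of the count table with a window and in 0.119% of all windows. The members were Hspa5, Hsp90b1 (with a pair of matches) and Dnajc3, a DnaJ that also inhibits translation-blocking kinases. They are shown because these are genes of 1 compartment with the same element. The elements are in capitals and each sequence reads towards its gene. Hspa5 is at chr2:34772010-34772058 (plus), Hsp90b1 at chr10:86705518-86705671 (minus) and Dnajc3 at chr14:118937812-118937860 (plus).
Hspa5: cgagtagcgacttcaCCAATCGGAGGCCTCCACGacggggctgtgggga
Hsp90b1: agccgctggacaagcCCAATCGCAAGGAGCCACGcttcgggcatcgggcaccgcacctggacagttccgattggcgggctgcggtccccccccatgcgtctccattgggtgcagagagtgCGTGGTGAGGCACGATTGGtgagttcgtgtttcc
Dnajc3: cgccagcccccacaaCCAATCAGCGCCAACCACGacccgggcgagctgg
The genes with this element did not share 1 direction: the culture ratios of Hspa5, Hsp90b1 and Dnajc3 were 0.39, 0.78 and -0.43 for C57BL/6, against -0.07, 0.59 and -0.08 for CAST/Ei.

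Among the other endoplasmic reticulum genes, Dnajb9 (ERdj4), a DnaJ that supports the removal of misfolded proteins, was at 38.98 and 69.3 CPM in C57BL/6 (cell medians 22.2 and 30.5) and 48.9 and 133.5 CPM in CAST/Ei (medians 28.8 and 59.04), with ratios of 0.81 and 1.43. In cluster 5 it was over 2-fold above naive cells in both strains, at 100 and 167.7 CPM. A single cluster 5 cell held 35.0% of the Dnajb9 reads of cultured C57BL/6 cells. Without the cell of most reads in each group, the C57BL/6 ratio was 0.39. Dnajb11 (ERdj3), a secreted partner of BiP, was at 20.9 and 103.9 CPM in C57BL/6 (ratio 2.26) and 21.4 and 21.6 CPM in CAST/Ei (0.01). A single cluster 5 cell held 71.4% of the Dnajb11 reads of the cultured C57BL/6 cells, and without the cell of most reads in each group the ratio was 0.65. Without the cells highest in glial markers it was -0.51. Cluster 1 held 44.1 and 37.5 CPM of Dnajb11. Dnajc1, a membrane DnaJ that binds BiP, was at 8.77 and 21.1 CPM in C57BL/6 (medians 2.32 and 18.3) and 10.4 and 14.3 CPM in CAST/Ei, where 1 cell held 56.9% of cultured reads. Lower in C57BL/6 were Dnajc18 (198 and 88.4 CPM; CAST/Ei 154.7 and 94.96), Dnajc14 (24.2 and 8.53; CAST/Ei 21.2 and 20.9, with 44.3% of cultured CAST/Ei reads in 1 cell) and Dnajc16 (5.95 and 1.36 CPM). Hspa13 stood at 50.1 and 54.6 CPM in C57BL/6 and 87.2 and 113.9 CPM in CAST/Ei.

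The mitochondrial list had 2 genes higher and 3 lower of 10 in C57BL/6, and 0 higher and 3 lower in CAST/Ei, with medians of -0.54 and -0.57. The C57BL/6 shares, 20% and 30%, stand near the 21.5% and 23.9% of all genes. In CAST/Ei 0% and 30% stand beside 23.5% and 22.6%. Hspa9 (mortalin), the Hsp70 that pulls proteins into the matrix, was at 93.5 CPM in naive C57BL/6 cells (91.2 to 95.9; cells from 0 to 401, median 79.1) and 370 CPM in cultured ones (361 to 379; 0 to 1501, median 176). In CAST/Ei it was at 96.8 CPM (95.2 to 98.3; median 82.6) and 146.5 CPM (143.6 to 149.4; 0 to 1050, median 122.3). The ratios were 1.97 and 0.59, and over all C57BL/6 cells the ratio was 0.82. In cluster 1 the strains were near each other, at 206 and 183 CPM, while cluster 5 held 617 CPM in C57BL/6 and 125.3 CPM in CAST/Ei. Dnaja3 (Tid1), the matrix partner of Hspa9, was at 54.4 and 214 CPM in C57BL/6 (ratio 1.95) and 66.6 and 86.4 CPM in CAST/Ei (0.37). Its cell medians barely differed, at 48.1 and 51.6 CPM in C57BL/6 and 57.4 and 55.5 CPM in CAST/Ei. In cultured C57BL/6 cells 1 cluster 5 cell held 57.5% of Dnaja3 reads, the ratio without the cell of most reads was 0.85, and in cluster 1 alone it was -0.01.

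Lower in both strains were Dnajc30, a DnaJ that acts on respiratory chain complexes, with Dnajc28 and Dnajc4. Dnajc30 was at 27.5 CPM in naive C57BL/6 cells (26.2 to 28.7; cells at 0, 17.8 and 361) and 3.79 CPM in cultured ones (2.92 to 4.84; cells at 0, 0 and 57.9). For CAST/Ei the level was 23.9 CPM (23.1 to 24.6; cells at 0, 14.6 and 214) and 4.16 CPM (3.69 to 4.68; cells at 0, 0 and 54.1). Ratios were -2.57 and -2.27, and Dnajc30 was over 2-fold lower in clusters 1 and 5 alike. Over all C57BL/6 cells its ratio was -0.95. Of its words 24.0% are shared with the neighbour Bud23. Dnajc28 went from 11.6 to 2.25 CPM and from 6.74 to 0.666 CPM. The matrix chaperonin Hspd1 (Hsp60) and its lid Hspe1 (Hsp10) stayed within 2-fold: Hspd1 was at 85.03 and 61.6 CPM in C57BL/6 and 98.3 and 63.9 CPM in CAST/Ei, and Hspe1 at 52.1 and 33.8 CPM and 48.5 and 65.2 CPM. They are transcribed away from each other from 1 shared stretch with overlapping heat shock elements, at chr1:55088044-55088091, shown on the strand of each gene with the elements in capitals.
Hspe1: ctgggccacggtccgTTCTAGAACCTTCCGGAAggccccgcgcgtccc
Hspd1: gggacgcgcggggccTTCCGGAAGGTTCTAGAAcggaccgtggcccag
From this shared promoter the pair differed in sign in CAST/Ei, with ratios of -0.61 for Hspd1 and 0.42 for Hspe1, and both were below 0 in C57BL/6 (-0.46 and -0.61). Of their 50-base words 42.1% (Hspd1) and 44.8% (Hspe1) are shared with other genes, so these counts are uncertain.

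DnaJ proteins of vesicles and endosomes are of interest in neurons. Dnajc5 (cysteine string protein), which guards the release machinery at synapses, was at 220 and 299 CPM in C57BL/6 and 230 and 535 CPM in CAST/Ei, ratios of 0.44 and 1.21. The cell medians were close, at 203 and 225 CPM in C57BL/6 and 201 and 228 CPM in CAST/Ei. Cluster 1 was at 231 and 226 CPM, and cluster 5 at 403 and 739 CPM, so the higher CAST/Ei sum comes with its 31 cells of cluster 5. Dnajc6 (auxilin), the neuronal uncoating partner of clathrin, was at 147.9 and 38.2 CPM in C57BL/6 (ratio -1.93; cell medians 118.95 and 41.5) but at 136.1 and 135.1 CPM in CAST/Ei (-0.01; medians 113.4 and 30.04). Cluster 1 was low in both strains, at 48.5 and 51.4 CPM, while cluster 5 was at 14.8 CPM in C57BL/6 and 190 CPM in CAST/Ei. A single cluster 5 cell held 36.6% of the Dnajc6 reads of all cultured CAST/Ei neuron-like cells, and without it their level was 88.8 CPM. Without the cell of most reads in each group, the ratios were -1.94 in C57BL/6 and -0.56 in CAST/Ei. Dnajc13, an endosomal DnaJ, was at 90.7 and 82.2 CPM in C57BL/6 and 76.01 and 134.4 CPM in CAST/Ei. A single cluster 5 cell held 68.6% of the last sum, and without it the level was 43.6 CPM.

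Ribosomal and nuclear DnaJ proteins of type C showed 0 of 4 genes past 2-fold in either strain, with medians of -0.05 and 0.34. Dnajc8, a spliceosome protein, was at 59.2 and 75.1 CPM in C57BL/6 and 60.5 and 67.7 CPM in CAST/Ei. Dnajc9, a histone chaperone, was at 28.1 and 26.8 CPM and at 19.6 and 28.3 CPM, and Dnajc21, which serves ribosome assembly, at 19.9 and 18.2 CPM and at 24.5 and 19.6 CPM. Among the 6 remaining members 4 were lower in C57BL/6 and 3 in CAST/Ei, none was higher, and the medians were -1.12 and -0.92. Beside the counts of both lists, 21.5% of all genes were higher and 23.9% lower in C57BL/6, and 23.5% and 22.6% in CAST/Ei. Dnajc12, a partner of aromatic amino acid hydroxylases, was at 44.3 and 11.1 CPM (cell medians 35.9 and 5.47) and at 85.5 and 26.7 CPM (71.04 and 16.2), ratios of -1.91 and -1.64. In cluster 1 it was at 16.8 and 55.1 CPM, a CAST/Ei ratio of -0.62. Dnajc7 (Tpr2), which links Hsp70 and Hsp90, was at 134.3 and 56.5 CPM and at 146.1 and 69.9 CPM. With means of cell CPM the Dnajc7 ratios were -0.91 and -0.96, and in cluster 1 -0.65 and -0.87, under 2-fold. Dnajc27 was at 36.8 and 17.7 CPM and at 31.5 and 7.15 CPM, and its C57BL/6 ratio was -0.56 in cluster 5 alone.

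Small heat shock proteins, which hold unfolding proteins without using ATP, were the list with the highest culture medians, 0.71 and 1.94, over only 3 genes. Hspb1 (Hsp27; chr5:135887919-135889563, plus strand), known as a survival and axon growth factor in sensory neurons, was at 15.5 CPM in naive C57BL/6 cells (14.6 to 16.5; cells at 0, 8.58 and 150.7) and 37.3 CPM in cultured ones (34.4 to 40.3; cells at 0, 22.8 and 415). In CAST/Ei it was at 3.72 CPM (3.43 to 4.03; cells at 0, 1.10 and 141.6) and 17.1 CPM (16.2 to 18.2; cells at 0, 9.10 and 447). Medians were higher in culture in both strains, with wide overlap. The ratios were 1.21 and 1.94. The C57BL/6 ratio was 0.86 without the cell of most reads in each group, 0.95 in cluster 1, and 0.93 with the naive cluster 9 counted as neuron-like. Over all cells of the group it was reversed at -1.22. The unnamed naive cluster 7 held 118.2 CPM of Hspb1 and cultured C57BL/6 fibroblast-like and glia-like cells 10.8 and 6.74 CPM. Over all CAST/Ei cells it was 0.94. With 10 CPM added in place of 1, the Hspb1 ratios were 0.89 and 0.98, both under 2-fold. Of the Hspb1 words 48.8% are shared with Hsp25-ps1.

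Hspb6 was low and higher in cultured CAST/Ei cells (0.729 and 6.28 CPM, ratio 2.07) and in cultured C57BL/6 cells by 0.71 (6.57 and 11.4 CPM). Its cell medians were 0 in all 4 groups. The cultured reads were in cluster 1 (20.2 and 17.1 CPM), with 0 CPM in C57BL/6 and 0.0247 CPM in CAST/Ei cluster 5. With 10 CPM added in place of 1, the CAST/Ei ratio was 0.60, and without the cells highest in glial markers the C57BL/6 ratio of Hspb6 was -2.75. Hspb6 was highest in cluster 8, of cultured C57BL/6 glia-like cells, at 84.9 CPM, and the part of glial RNA in cluster 1 was not tested. Hspb8, which delivers aggregates to autophagy with Bag3, did not differ by culture, at 238 and 232 CPM in C57BL/6 and 148.2 and 158.01 CPM in CAST/Ei, and was higher in cluster 5 (325 and 201 CPM) than in cluster 1 (174.2 and 97.96 CPM).

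Because the cultured clusters differ so widely, each was also set against the naive neuron-like cells of its strain. In cluster 1 of both strains 9 members were at least 2-fold lower: Dnaja1, Dnajb1, Dnajc6, Dnajc27, Dnajc28, Dnajc30, Hspa1a, Hspa1b and Hsph1. In cluster 5 of both strains 21 were lower. Of 10592 genes 12.6% were lower in cluster 1 and 23.7% in cluster 5 of both strains. Those lower in both clusters of both strains were 5, Hspa1a, Hspa1b, Hsph1, Dnajc28 and Dnajc30, beside 7.30% of all genes. Higher in cluster 1 of both strains were Hsp90b1 and Hspb6, higher in cluster 5 of both were Dnajb9 and Hspb1, and 0 were higher in both clusters, beside 11.9%, 10.7% and 4.28% of all genes. Single cluster 5 cells held 35.0% of the Dnajb9 and 30.5% of the Hspb1 reads of cultured C57BL/6 neuron-like cells. The C57BL/6 cluster 5 levels of both genes thus lean on single cells among 10. Single cluster 1 cells held 26.2% of the Hsp90b1 and 24.0% of the Hspb6 reads of cultured C57BL/6 neuron-like cells. For cultured CAST/Ei neuron-like cells these shares were 10.7% and 33.7%. These clusters were found without the chaperone genes, but a comparison of clusters remains a description.

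**Figure D4:**
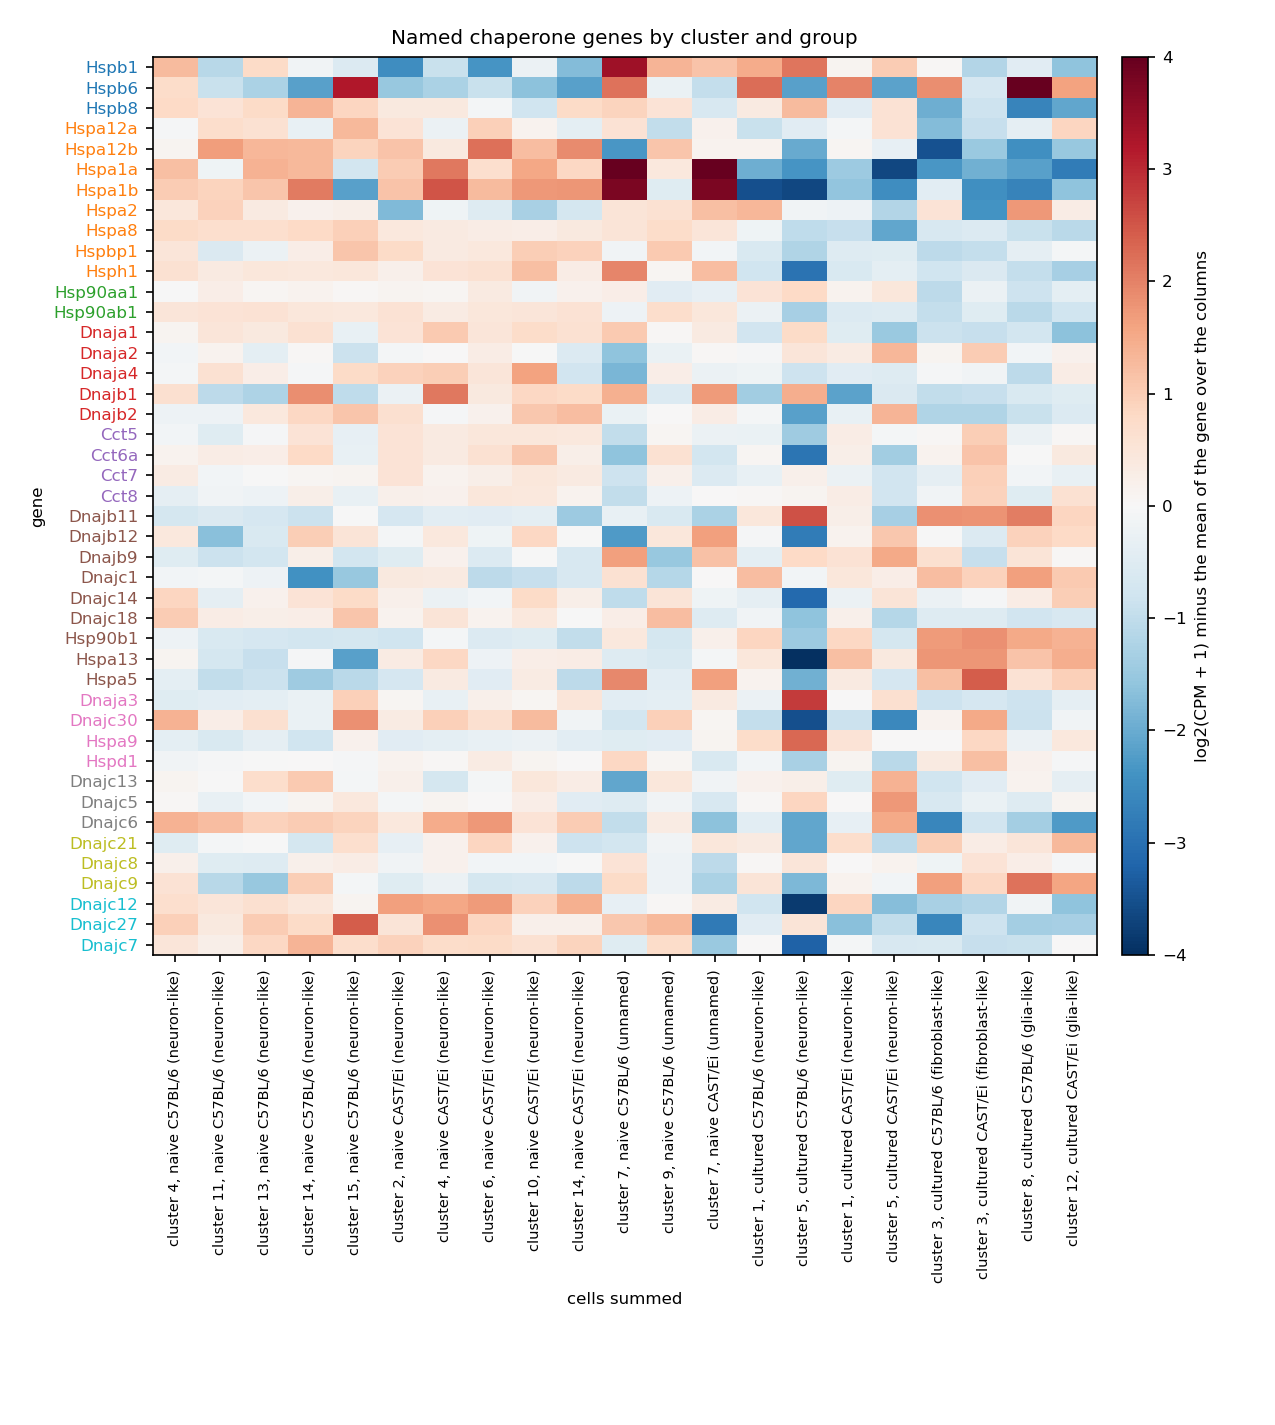
Named chaperone genes (rows, coloured by compartment as in the map of group levels) in the summed cells of each cluster and group (columns, naive first), as log2(CPM + 1) minus the gene's mean over the columns, with colours limited at 4 on either side. Hspa1a and Hspa1b are highest in the unnamed naive cluster 7 of both strains, Hsp90b1 in cultured fibroblast-like and glia-like cells.

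Between strains, naive neuron-like cells had nearly the same chaperone levels. Of 66 genes 0 were at least 2-fold higher in CAST/Ei and 3 were lower, beside 8.31% higher and 6.56% lower of 10410 genes, and the medians of members and of all genes were both 0.09. The 3 were Hspb6 (-2.13), Hspb1 (-1.81) and Hspa2 (-1.41). With 10 CPM added in place of 1, Hspb6 was at -0.63 and Hspb1 at -0.90. Hspa2 was at 148.8 CPM in naive C57BL/6 (145.9 to 151.7; cells from 0 to 548, median 136.2) and 55.3 CPM in naive CAST/Ei cells (54.1 to 56.4; 0 to 361, median 35.9), and at 191 and 61.4 CPM in cultured cells, so the strain difference stood in both states. Without the cells highest in glial markers the Hspa2 ratio between cultured cells was -0.42. In cluster 4, which holds 23 naive C57BL/6 and 28 naive CAST/Ei cells, Hspa2 was at 143.6 and 92.5 CPM, a ratio of -0.63. Hspb1 was at 26.4 and 5.08 CPM in that cluster. Of the CCT subunits 0 of 7 passed 2-fold between naive strains. Their ratios were above 0 for 6 of 7, beside 57.003% of all genes, with a median of 0.32 and a highest value of 0.58 for Cct5 (400 and 596 CPM). Strain cannot be told apart from animal, culture or capture, and reads of CAST/Ei differ in sequence from the C57BL/6 reference, the effect of which was not tested.

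Cultured neuron-like cells differed more between strains. Of 61 genes kept, 6 were at least 2-fold higher in CAST/Ei and 8 were lower, beside 23.3% higher and 14.3% lower of 10226 genes. The medians were 0.10 for members and 0.21 for all genes. Lower in CAST/Ei were Dnajb11 (-2.21), Hspa2 (-1.62), Dnajb1 (-1.36), Hspa9 (-1.33), Dnaja3 (-1.30), Dnajc27 (-1.20), Hspb1 (-1.08) and Hspa8 (-1.002). Higher were Dnajc6 (1.80), Dnajb2 (1.58), Dnajb12 (1.45), Dnajc14 (1.20), Dnajc12 (1.20) and Hspa13 (1.05). Without the cell of most reads of each member in each group, 3 members were lower. Of the 8 named, only Hspa2 (-1.59) and Hspa9 (-1.27) were among them. The remaining member was Dnajc1, at -1.43 in that setting and -0.53 with every neuron-like cell. No share of all genes is given for that setting. The cultured cells of CAST/Ei hold a larger part of cluster 5 (31 of 65) than those of C57BL/6 (10 of 33). Within cluster 1, 1 member was higher and 3 were lower, beside 11.8% and 7.74% of all genes. Each of the 14 differences listed first fell short of 2-fold, or changed sign, in at least 1 alternative.

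The culture ratio of CAST/Ei minus that of C57BL/6 was at least 1 for 9 of 66 members and at most -1 for 5, beside 20% and 15.7% of 11108 genes. Dnajc6 (1.92), Dnajc14 (1.39) and Hspb6 (1.37) had the highest values among named members, and Dnajb11 (-2.25), Dnajb1 (-2.09) and Dnaja3 (-1.59) the lowest. Without the cell of most reads in each group, the values in this order were 1.37, 0.72, 0.99, -0.74, -1.68 and -1.01. Of the 11 such differences recomputed under the alternatives, each fell short of 1, or changed sign, in at least 1 of them. Leaving out the cell of most reads of each member left 2 in place of 9. Within cluster 1 there were 2 and 2, beside 10.7% and 9.14% of all genes. These differences share their control groups with the comparisons above and were not tested.

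Chaperone levels also varied among naive neuron-like clusters and strains. Over the 10 pairs of naive cluster and strain, the range of log2(CPM + 1) from lowest to highest had a median of 1.44 over the 66 members. It was at least 2-fold for 52 of them. No such range is given for all genes, so whether 52 is many for this table is not known. Each range mixes differences between clusters with those between strains. The narrowest ranges were those of Hsp90ab1 (0.26), from 3452 CPM (cluster 4, CAST/Ei) to 4135 CPM (cluster 13, C57BL/6), of Hspd1 (0.46; 80.7 to 111.8 CPM) and of Hsp90aa1 (0.50; 928 to 1314 CPM). Hspa8 ran from 1566 to 2540 CPM (0.70) and Cct5 from 309 to 632 CPM (1.03). The widest ranges were those of Hspb6 (5.38; 0 to 40.6 CPM), of Hspa1b (4.69), from 2.59 CPM (cluster 15, C57BL/6) to 91.6 CPM (cluster 4, CAST/Ei), of Hspb1 (3.77; 1.00198 to 26.4 CPM) and of Dnajb1 (3.36), from 25.9 CPM (cluster 13, C57BL/6) to 274 CPM (cluster 4, CAST/Ei). Hspa1a ran from 9.28 to 73.1 CPM (2.85), between the same clusters as Hspa1b, and Hspa13 (2.98), Dnajc11 (2.88) and Dnajc15 (2.87) ranged as far. Some clusters are small, such as cluster 14 of C57BL/6 with 6 cells, which held the highest Hspb8 level (351 CPM, against 77.9 CPM in cluster 10 of CAST/Ei).

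Partner genes outside the naming rule were counted from lists. Their levels are sums over cells alone, without cell medians or a split by cluster. Whether a partner gene's sum rests on few cells is therefore not shown. Of 23 heat shock factors and cytosolic co-chaperones 3 were higher and 7 lower in cultured C57BL/6 cells (median -0.40), and 1 was higher and 7 lower in CAST/Ei (-0.63). As shares that is 13.04% and 30.4% in C57BL/6, beside 21.5% and 23.9% of all genes. In CAST/Ei it is 4.35% and 30.4%, beside 23.5% and 22.6%. Cryab (alpha-crystallin B), a small heat shock protein named as a crystallin, was at 57.5 and 390 CPM in C57BL/6 and 29.3 and 455 CPM in CAST/Ei, ratios of 2.74 and 3.91. Glial and fibroblast markers were higher in the same cells, and their part in the Cryab level was not tested. Bag2, a nucleotide exchange factor of Hsp70, was at 69.3 and 10.2 CPM in C57BL/6 and 29.1 and 11.1 CPM in CAST/Ei, and Cdc37, which brings kinases to Hsp90, at 75.7 and 39.7 CPM and at 63.7 and 22.8 CPM. Chosen after their values were seen, Stip1 (Hop), which joins Hsp70 to Hsp90, was at 191 and 50.5 CPM and at 218 and 89.97 CPM, and Hsf1, the heat shock factor itself, at 15.2 and 4.09 CPM in C57BL/6 and 19.3 and 21.3 CPM in CAST/Ei.

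Of the endoplasmic reticulum folding and unfolded protein response list 5 of 21 were higher and 1 lower in C57BL/6 (median 0.22), and 4 of 20 higher and 1 lower in CAST/Ei (0.24). The higher shares, 23.8% and 20%, are near those of all genes. Of all genes 21.5% were higher and 23.9% lower in C57BL/6, and 23.5% and 22.6% in CAST/Ei. Serpinh1 (Hsp47), the collagen chaperone, was at 2.20 and 36.1 CPM in C57BL/6 and 2.01 and 80.3 CPM in CAST/Ei. The fibroblast markers given above were higher in the same cells, and their part in the Serpinh1 level was not tested. Ddit3 (Chop), a stress transcription factor, was at 38.2 and 190 CPM in C57BL/6 and 50.8 and 41.5 CPM in CAST/Ei, and Atf6, a sensor that drives BiP, at 47.7 and 34.2 CPM and at 52.8 and 162.5 CPM. Of 7 prefoldin and chaperonin partners 1 was higher in each strain, Pfdn4 in C57BL/6 (37.01 and 101.2 CPM) and Pdcl3 in CAST/Ei (75.1 and 166.3 CPM), and 0 were lower. Of 11 mitochondrial import and protease genes 0 were higher and 1 lower in C57BL/6, and 1 was higher and 2 lower in CAST/Ei, where the matrix protease Lonp1 was at 25.2 and 67.5 CPM and Grpel2, a nucleotide exchange factor of Hspa9, at 31.5 and 12.6 CPM.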

How the data were processed

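Single cells of dorsal root ganglia were captured on Fluidigm C1 chips, and per the labels' protocols each sequencing run held cells from every condition. Raw counts of reads, per gene and cell and without molecular identifiers, were deposited by the authors as 1 table. Per the submitters' processing notes, Bowtie2, SAMtools and the build mm10 were used. For the counter, annotation and filters, no name is given in the sources used here. No 2 cells had identical columns. Each group was 1 sample, since no animal, culture or chip is named, so no test was run.

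Cells were clustered (scikit-learn 1.9.0, leidenalg 0.10.2) on 2000 variable genes, 20 principal components and 15 neighbours, with chaperones and partner genes left out, and clusters were named from marker lists. No doublet caller was run. Reads were summed over neuron-like cells, scaled to CPM and compared as log2 ratios after adding 1 CPM, for genes with at least 5 CPM in either group. Intervals are exact Poisson or binomial and cover counting error only. The calculation of ratios was checked on simulated counts with known fold changes. Members named with values had a 2-fold difference and 20 CPM in a comparison, or were the 3 highest of their list, and partner genes were the 2 of largest difference per list and strain. Members named only for a promoter motif, in a full list of called genes, or because 1 cluster stood out were chosen after their values were seen. Shared sequence was counted as 50-base words of GENCODE vM21 transcripts. Members and lists were chosen with earlier results of these data known.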

Additional observations from a re-analysis of the deposited data

How the results depend on the processing

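Of the recomputed counts of members past 2-fold, 84 stayed within 1.5 times the reported count and 40 did not. With no minimum level, or with clusters built on all genes, all 232 counts and ratios kept direction and side of 2-fold. With 10 CPM added in place of 1, culture gave 3 higher and 12 lower members in C57BL/6 and 2 higher in CAST/Ei, naive strains gave 1 lower, cultured strains 2 higher and 5 lower, and the difference of responses 2 higher. Of all genes the shares in this order were 14.8%, 12.6%, 16.3%, 2.84%, 14.3%, 8.52% and 11.8%. With a minimum of 50 CPM the counts were 3 higher and 8 lower in C57BL/6, 2 higher and 10 lower in CAST/Ei, 1 lower between naive strains, 2 higher between cultured strains and 4 higher for the difference, as fewer genes were counted. Of all genes the shares in this order were 27.8%, 20.3%, 27.6%, 17.7%, 6.17%, 23.2% and 18.8%. Median-of-ratios scaling left 3 higher between cultured strains, and means of cell CPM left 3 lower there, beside 17.5% and 10.6% of all genes. Ward clusters gave 1 higher between naive strains and 5 higher for the difference, beside 7.11% and 18.4% of all genes. With all cells, C57BL/6 culture had 8 higher, naive strains 1 higher and cultured strains 4 lower, beside 23.4%, 6.81% and 12.1% of all genes. Signs turned there for Hspb1 in C57BL/6 culture (-1.22), for Dnaja3 (0.087), Dnajc27 (0.23) and Hspa13 (-0.24) between cultured strains and for Dnajb12 in the difference (-0.29). Without the neuron-like cells highest in glial markers, C57BL/6 culture had 36 lower, cultured strains 20 higher, and the difference 25 higher and 8 lower. The shares of all genes moved too, at 46.9%, 44.5%, 38.4% and 21.4% in the same order. Dnajb11 in C57BL/6 culture (-0.51) and Dnajc27 between cultured strains (1.10) turned in that setting. The cause was not tested.

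The following alternatives were chosen after seeing the data. With cluster 9 counted as neuron-like, naive strains had 1 higher, and with naive cells of cluster 4 only, 4 higher, beside 7.31% and 13.97% of all genes. With cultured cells of cluster 1 only, C57BL/6 had 12 lower, cultured strains 1 higher and 3 lower, and the difference 2 higher and 2 lower. Of all genes the shares in this order were 19.5%, 11.8%, 7.74%, 10.7% and 9.14%. Turned there were Dnaja3 in C57BL/6 culture (-0.012), Dnajc5 in CAST/Ei culture (-0.025), Dnaja3 (0.24) and Dnajb2 (-0.21) between cultured strains, and Dnajb12 (-0.093) and Dnajb2 (-0.57) in the difference. With cluster 5 only, C57BL/6 had 40 lower, CAST/Ei 27 lower, cultured strains 26 higher, and the difference 27 higher and 11 lower. The shares of all genes moved too, at 51.3%, 32.8%, 48.2%, 43.6% and 20.99% in the same order. Without the cell of most reads of each member in each group, C57BL/6 had 2 higher, cultured strains 3 lower and the difference 2 higher. For this setting no share of all genes is given. The cause was not tested. Wherever they were kept across these settings, Hspa1a and Hspa1b stayed more than 2-fold lower in culture in both strains. No paired analysis was possible because the numbers in the labels only count cells, each group is 1 sample, and no test was run.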

Other observations

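The unnamed cluster 7, of 16 naive C57BL/6 and 18 naive CAST/Ei cells, is led by Tgtp2, Flt1 and Iigp1 and held the highest levels of the inducible Hsp70 pair of any cluster. Hspa1a was at 297 CPM in its C57BL/6 cells and 511 CPM in its CAST/Ei cells, and Hspa1b at 219 and 218 CPM. Hspa5 stood at 2001 and 1646 CPM, and Hsph1 at 628 and 380 CPM. Against naive neuron-like cells of the same strain, 12 of 66 members stood 2-fold or more above and 18 below in C57BL/6, and 8 and 14 of 65 in CAST/Ei. Of all genes 25.7% stood above and 30.97% below in C57BL/6, and 24.6% and 30.8% in CAST/Ei. The unnamed cluster 9, of 31 naive C57BL/6 cells, had a mean neuron marker level of 8.02 in log2(CPM + 1). It had 0 of 66 members higher and 5 lower, beside 8.55% and 12.3% of 10244 genes. Hsp90ab1 was at 4532 CPM in it and Hspa8 at 2184 CPM.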
